A study of Sus scrofa with 24 samples.

Results

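The comparison was of barrows (castrated males) with gilts (young females) among the pigs fed an unsaturated oil. It held 12 of the 24 pigs measured, chosen by their sample titles: 6 barrows and 6 gilts, with 3 of each sex on olive oil and 3 of each sex on soybean oil. All were crosses of Landrace, Large White and Duroc that weighed about 71 kg at about 130 days of age when they were allotted to diets, and the oil made up 3% of the feed. The other 12 pigs had beef tallow or coconut oil at the same level, 3 of each sex per fat, and no group without added fat was analysed here. Total RNA from longissimus dorsi, a muscle of the loin and back, was hybridised to a 1-colour Affymetrix porcine array, 1 array per pig. The length of feeding, the age at sampling and the pen of each sampled pig are not given in the sources used here. No intact males were analysed here, so chromosomal sex and castration cannot be told apart. Genes on X and Y were left out, and autosomal genes of metabolism, muscle and immunity are described.

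Skeletal muscle burns fatty acids taken up from blood lipoproteins, fatty acids released from its own lipid droplets, and glucose through glycolysis. The loin is a mostly fast muscle that also holds slow fibres, fat cells, fibroblasts, vessels and resident leukocytes, all of which contribute RNA to a whole sample. Type I interferon acts on nearly every cell type through the receptor IFNAR and turns on a set of antiviral genes. Barrows usually lay down more fat than gilts, which carry ovaries and their hormones.

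The samples had the genes of skeletal muscle near the top of the range: CKM, MYH7, TNNT3, MYLPF, DES and MYH2 lay between the 98.01 and 99.97 percentile of mean signal. With array data, precision is set by how many pigs there were. The median signal of an array was 142.1 to 160.7 in barrows (median 147.7) and 143.3 to 165.4 in gilts (median 160.8), a difference of -9.9 with an exact permutation p of 0.045 (two-sided, sexes exchanged within oils). The 3′ to 5′ ratio of GAPDH, a check of RNA integrity, had an exact permutation p of 0.2 between the sexes. Gilts 12 and 11 had the lowest mean correlation with the other 11 arrays, 0.907 and 0.922. Gilts carry title numbers 1 to 12 and barrows 13 to 24, so sex and any order of handling that these numbers follow cannot be told apart.

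Between the sexes, 25 of 14399 probe sets tested (0.174%) passed an adjusted p under 0.05 in limma, 11 higher (0.0764%) and 14 lower (0.0972%) in barrows. Of these, 11 stood for a single autosomal gene: 4 were higher and 7 lower in barrows. The 7 lower ones were the interferon-induced genes EIF2AK2, RSAD2, MX1 and ISG12(A), the lipid genes GPIHBP1 and ABCA1, and the folate enzyme MTHFD1L. The higher ones were TRAF6, a probe set each of HSP90B1 and PDPK1, and CHD7, a chromatin remodeller outside the gene groups described here. At an unadjusted p under 0.05, 914 probe sets (6.35%) were higher and 1371 (9.52%) lower. Over the 5066 autosomal genes tested the median difference was -0.01, in log2(signal + 1), barrow minus gilt, as are all differences below. Of these genes, 52.01% had a negative and 47.99% a positive difference. In all 11 autosomal calls the sexes did not overlap and the sign was the same on each oil. The 11 were picked by their p-values in these same pigs, so both traits largely follow from that choice and add no support. Of all probe sets, 1.39% had no overlap (0.646% with barrows higher, 0.743% with barrows lower). The count of 11 depended on single pigs: it was 1 without barrow 14, 2 without gilt 3, gilt 11 or barrow 17, 3 without barrow 18, 4 without gilt 4 or barrow 19, 6 without gilt 12, 7 without barrow 13 or 22, 32 without gilt 7 and 55 without gilt 9. Not all of these calls were among the 11. Those that were numbered 2 without barrow 19, 6 without barrow 13, 4 without barrow 22, 10 without gilt 7 and 11 without gilt 9. In the other runs every call was among the 11. Apart from EIF2AK2, each of the calls described below was lost with no signal filter and without gilts 11 and 12 together.

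Interferon-induced genes made up the group with most calls. Of 31 tested genes of the interferon list, 4 fell in barrows, 0 rose and 27 did not pass. EIF2AK2 encodes PKR, a kinase that stops translation when it meets double-stranded RNA. Its signal was 339.4 to 559.8 in barrows (median 457) and 840 to 1417 in gilts (median 1079), so the lowest gilt stood well above the highest barrow. The difference was -1.26 ± 0.17 (SE, 6 against 6 pigs), 2.40-fold lower, with an adjusted p of 0.00573. It passed without any 1 of the 12 pigs and under all 14 other settings.

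RSAD2 encodes viperin, an antiviral enzyme of the endoplasmic reticulum and of lipid droplets. In barrows its signals were 209.4, 123.1 and 156.2 on olive oil and 385.6, 226 and 268.4 on soybean oil. In gilts they were 1998, 1246 and 460.7 on olive oil and 1229, 532.4 and 1895 on soybean oil. Every gilt was above every barrow, and the gilts spread more widely than the barrows. RSAD2 was 4.95-fold lower in barrows, a difference of -2.31 ± 0.37 with an adjusted p of 0.0259. It still passed without gilt 4, 7, 9 or 12 or barrow 13, and did not without each of the other pigs, 3, 11, 14, 17, 18, 19 and 22, with differences of -2.58 to -2.06 and adjusted p up to 0.0827 over the 12 runs.

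MX1, a dynamin-like protein that blocks virus replication, had signals of 157.5 to 382 in barrows (median 313.4) and 527.2 to 1488 in gilts (median 842.6). It was 2.95-fold lower in barrows, a difference of -1.56 ± 0.26 with an adjusted p of 0.0310. ISG12(A), a small interferon-induced mitochondrial protein, had signals of 659.8 to 1100 in barrows (median 899.9) and 1583 to 4256 in gilts (median 2350). It was 2.90-fold lower, with an adjusted p of 0.0350. Neither gene overlapped between the sexes. Both passed without gilt 7, 9 or 12 and not without any other single pig, where adjusted p reached 0.0825 for MX1 and 0.116 for ISG12(A). Quantile normalization also ended the call of MX1, and a fit of 4 group means of oil and sex that of ISG12(A).

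**Figure D1:**
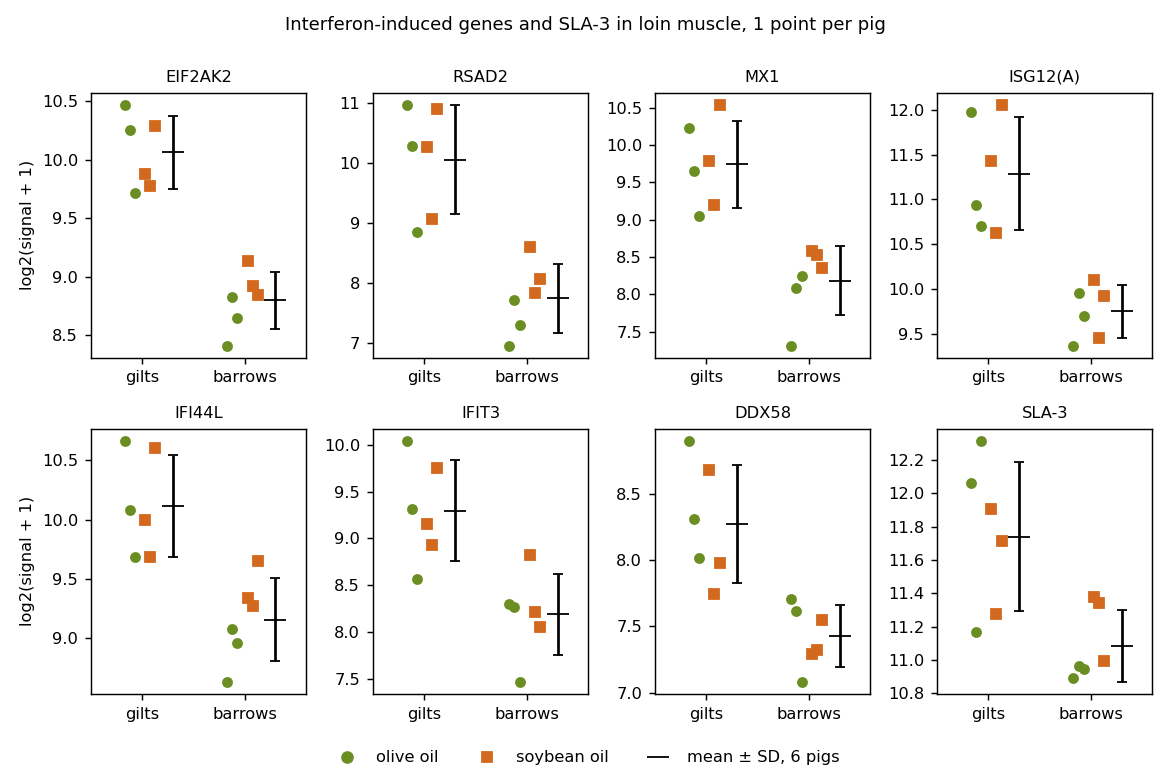
Log2(signal + 1) of 7 interferon-induced genes and of SLA-3 in 6 gilts and 6 barrows, 1 point per pig, green circles for olive oil and orange squares for soybean oil, with the mean and SD of each sex in black; each panel has its own axis, which does not start at 0. EIF2AK2, RSAD2, MX1, ISG12(A), IFI44L and DDX58 have every gilt above every barrow, while IFIT3 and SLA-3 overlap.

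Other effectors, sensors and regulators of the response did not pass. IFI44L had signals of 396.6 to 802.4 in barrows and 820.4 to 1619 in gilts, a difference of -0.96 with an adjusted p of 0.0924, and its second probe set gave -0.82. DDX58, the RNA sensor RIG-I, had signals of 134.4 to 207.9 in barrows and 213.5 to 477.9 in gilts, a difference of -0.84 or -0.79 by probe set. The sexes did not overlap in IFI44L by either probe set. For DDX58 they did not overlap by the brighter probe set. They did by the other, for which 6 of the 12 pigs lay below the signal filter. ISG15, a ubiquitin-like modifier, had medians of 352.2 in barrows and 1021 in gilts, with no overlap, a difference of -1.50 ± 0.37 and an adjusted p of 0.121. Its protease USP18 differed by -1.27, and IFIT3, IFIT1 and IFIT2, which bind viral RNA, by -1.11, -0.71 and -0.52. IRF9, the DNA-binding part of the interferon-activated complex, differed by -0.87 and STAT2, its partner, by -0.24.

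At an unadjusted p under 0.05, 14 of the 31 interferon genes were lower and 1 higher in barrows, where 9.52% and 6.35% of all probe sets were. The 1 higher gene was IFNAR1, a chain of the receptor itself, at 0.37; the other chain, IFNAR2, was at -0.09. Of the other positive members, OAS1, which makes the messenger that activates RNase L, was at 1.20 with an adjusted p of 0.367, and the chemokine CXCL9 was at 0.52. Over the whole list 24 differences were negative and 7 positive, and the median was -0.33 (-0.61 with a filter at the 60th percentile of signal). The summed signal of the 31 genes was 10839 to 15960 in barrows and 16833 to 25997 in gilts, without overlap.

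The same gilts were often the highest or the lowest from gene to gene. In 12 of the 14 lower genes, gilts 4 (olive oil) and 11 (soybean oil) were the 2 highest gilts. In 9 of the 14, gilts 9 (soybean oil) and 12 (olive oil) were the 2 lowest. The high and the low gilts thus came from both oils.

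No list of leukocyte genes had a call. Of 22 macrophage and monocyte genes, 12 were positive and 10 negative, with a median of 0.06 that turned negative without gilt 3 or 7 or barrow 13 or 14. By oil, a split not tested for the list, 20 of the 22 were negative on olive oil, with a median of -0.29, and 18 were positive on soybean oil, with a median of 0.27. CD163, the haemoglobin scavenger receptor of tissue macrophages, was at 0.31 with overlapping sexes. SPP1, the secreted phosphoprotein osteopontin, was at -1.41 with an adjusted p of 0.189. Of 9 genes of T, B and natural killer cells, 4 were positive and 5 negative. CD74, the invariant chain of class II molecules, was at -0.22. Whether leukocyte content bears on the interferon genes was not tested beyond these values.

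Of 21 antigen presentation genes, 0 passed. At an unadjusted p under 0.05, 3 were lower and 0 higher, where 9.52% and 6.35% of all probe sets were. SLA-3, a class I molecule, had signals of 1897 to 2660 in barrows (median 2016) and 2304 to 5088 in gilts (median 3597), a difference of -0.66 with an adjusted p of 0.176. CANX, a chaperone of class I assembly, was at -0.44. Complement and coagulation genes had 13 of 17 negative values, a median of -0.39 and 0 calls. That median was -0.20 without gilt 12, and it was -0.57 on olive oil and -0.04 on soybean oil. F3, the tissue factor that starts clotting, had signals of 485.5 to 1077 in barrows and 1058 to 3906 in gilts, a difference of -1.20 with an adjusted p of 0.127. C1S and C1R, the proteases of the first complement component, were at -0.60 and -0.51. Among 39 cytokine and chemokine genes, CCL4, a chemoattractant for leukocytes, was at -0.66 and IL15, a cytokine that muscle makes, at -0.42, with 0 calls.

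TRAF6, a ubiquitin ligase that carries signals from toll-like and interleukin-1 receptors and that also takes part in muscle wasting, rose in barrows. Its signal was 225.2 to 424.5 in barrows (median 293.8) and 90.72 to 191.3 in gilts (median 127.7), with no overlap. The difference was 1.19 ± 0.18, 2.28-fold higher, with an adjusted p of 0.0134, and 1 of the 12 pigs lay below the signal filter of 94.11. It passed in 11 of 12 runs without a pig, with an adjusted p of 0.0506 without barrow 14, and in 10 of 13 other settings; the call was also lost with all 24 arrays in the fit. TRAF6 belonged to no gene list and was named because it passed.

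**Figure D2:**
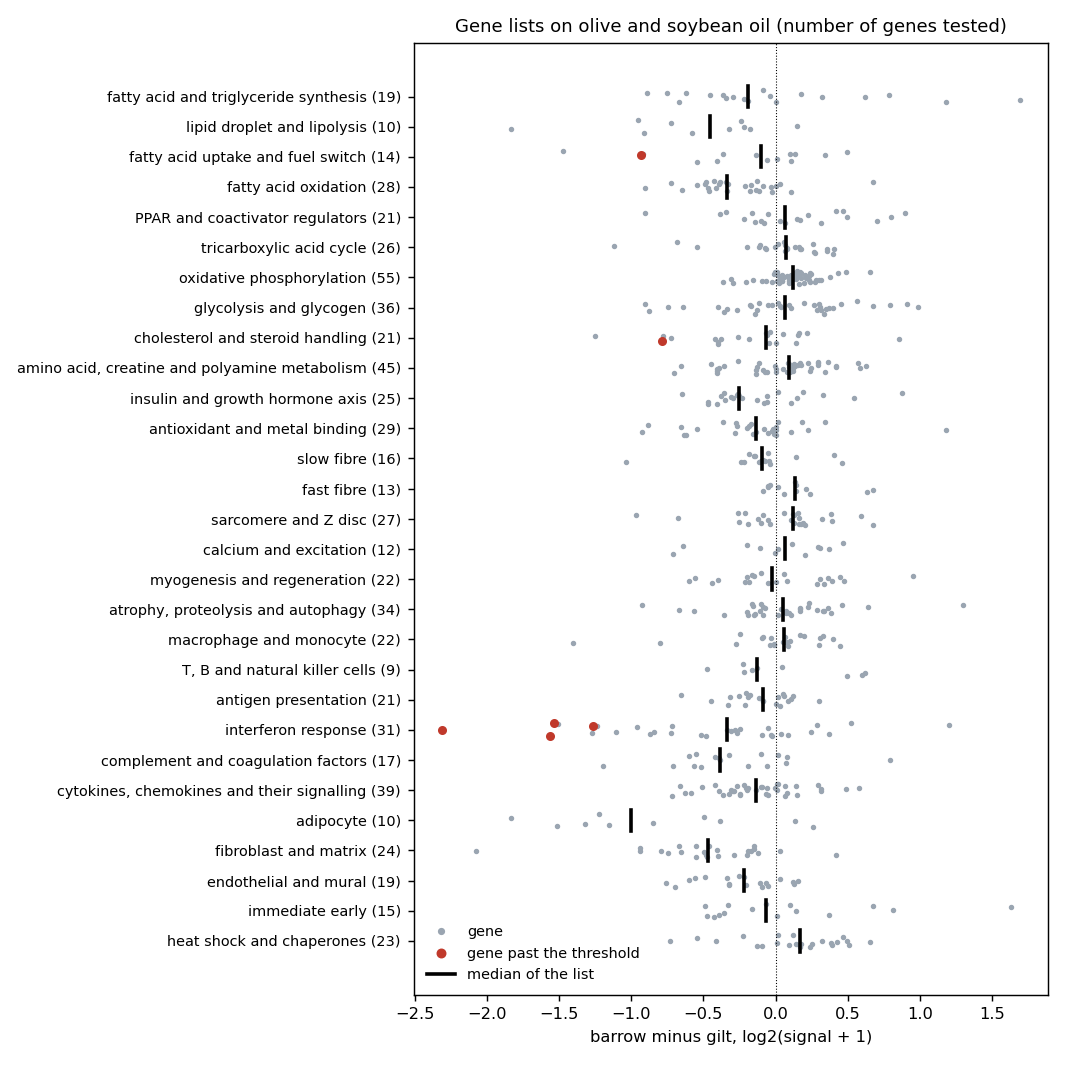
Barrow minus gilt difference in log2(signal + 1) of each gene in the 29 lists with at least 9 genes tested, 1 point per gene, red where the adjusted p was under 0.05, with a black bar at the median of the list; the number tested stands in brackets. The interferon list holds 4 red points, all on the left, and the adipocyte list has the lowest median, -1.0.

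Genes that bring lipid to the muscle fibre or out of it were lower in barrows in 2 cases. GPIHBP1 is the protein of capillary endothelium that holds lipoprotein lipase at the vessel wall. Its signal was 308.2 to 508.7 in barrows (median 343.2) and 619.5 to 921.7 in gilts (median 666), without overlap. It was 1.91-fold lower in barrows, a difference of -0.94 ± 0.16 (-0.86 on olive oil, -1.01 on soybean oil) with an adjusted p of 0.0350. Its call held without gilt 7 or 9 or barrow 13 or 22 and was lost without any of the other 8 pigs, with an adjusted p up to 0.116; it was also lost with quantile normalization, with centring of each array on its median and with 4 group means of oil and sex.

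ABCA1 exports cholesterol and phospholipid to apolipoprotein A-I and is a target of the liver X receptors. Its signal was 420.9 to 595.9 in barrows (median 494.5) and 686.3 to 1084 in gilts (median 813.1), again without overlap. It was 1.73-fold lower in barrows, a difference of -0.79 ± 0.13 with an adjusted p of 0.0350. It passed without gilt 7 or 9 and not without any other pig, with an adjusted p up to 0.111, and was lost with centring of each array on its median, with no oil term and with 4 group means of oil and sex. LPL, the lipase that GPIHBP1 anchors, differed by -0.55 with an adjusted p of 0.234, and FABP3, the fatty acid carrier of muscle cytosol, by -0.92 with an adjusted p of 0.155. NOS3, another endothelial gene, was at -0.76 without overlap and an adjusted p of 0.158, and the median of 19 endothelial and mural genes was -0.22, with 15 negative and 0 calls.

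Lipid droplet and lipolysis genes had 9 of 10 negative values, a median of -0.45 and 0 calls. PNPLA2, the lipase ATGL that starts triglyceride breakdown, had signals of 2704 to 4631 in barrows (median 3898) and 5763 to 8324 in gilts (median 7051). The sexes did not overlap, and the difference was -0.95 ± 0.17 with an adjusted p of 0.0563, just short of the threshold. It passed under 6 other settings, with adjusted p of 0.0258 to 0.0479, and without gilt 7 or gilt 9. LIPE, hormone-sensitive lipase, was at -1.83 with an adjusted p of 0.152 and overlapping sexes. PLIN3, a coat protein of droplets, was at -0.58 without overlap.

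**Figure D3:**
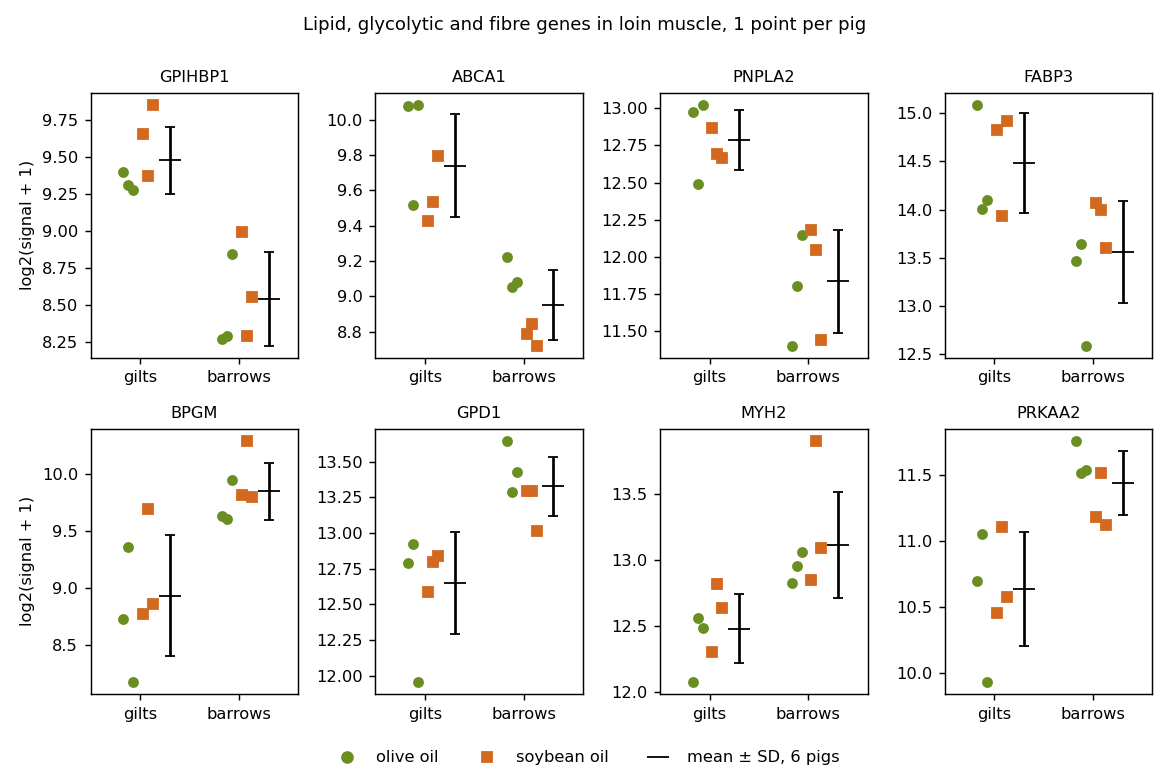
Log2(signal + 1) of 8 genes of lipid handling, glycolysis, fibre type and energy sensing in 6 gilts and 6 barrows, 1 point per pig, green circles for olive oil and orange squares for soybean oil, with the mean and SD of each sex in black; each panel has its own axis, which does not start at 0. GPIHBP1, ABCA1 and PNPLA2 have every gilt above every barrow, and GPD1, MYH2 and PRKAA2 every barrow above every gilt.

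Of 28 fatty acid oxidation genes, 24 were negative and 4 positive, with a median of -0.33 (-0.20 without gilt 4) and 0 calls. At an unadjusted p under 0.05, 8 were lower and 1 higher, where 9.52% and 6.35% of all probe sets were. HADHA, a subunit of the trifunctional protein of long-chain oxidation, had signals of 2598 to 4586 in barrows (median 2853) and 3193 to 7153 in gilts (median 5049), a difference of -0.65 with an adjusted p of 0.189. CPT1A, which brings long-chain fatty acids into mitochondria, was at -0.72, and CPT1B, its muscle form, at -0.47. ACADL and ACAA2, enzymes of the oxidation cycle, were at -0.48 and -0.55. ACOX3, a peroxisomal oxidase, was the positive exception at 0.68. PDK4, which holds back pyruvate oxidation, was at -0.36, and at -0.15 by its other probe set. UCP3, an uncoupling protein of muscle, was at 0.49, and at 0.014 by its other probe set.

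Most marker genes of fat cells also had lower values in barrows, though none passed. Of 10 adipocyte markers tested, 8 were negative and 0 passed. At an unadjusted p under 0.05, 5 were lower, where 9.52% of all probe sets were. The median of the 10 markers was -1.0 (-0.66 without gilt 12). Their summed signal was 9326 to 22272 in barrows (median 15089) and 13506 to 53344 in gilts (median 29946), with overlap. ADIPOQ, the fat cell hormone adiponectin, had signals of 908.9 to 2448 in barrows (median 1475) and 825.2 to 11440 in gilts (median 5675), a difference of -1.51 with an adjusted p of 0.195. FABP4, the fatty acid carrier of fat cells, was at -0.85 with an adjusted p of 0.180, PPARG, the main regulator of fat cell formation, at -0.91 and LEP, leptin, at 0.26. The part of fat cell content in the lipid genes was not tested. Fewer cells of a type and less RNA per cell cannot be told apart in whole muscle.

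Fibroblast and matrix genes ran the same way, with 22 of 24 negative, a median of -0.47 (-0.30 without gilt 12) and 0 calls. TNC, tenascin C, was at -2.08 with an adjusted p of 0.0859, but 5 of the 12 pigs lay below the signal filter for it. The median of the adipocyte list was -1.51 on olive oil and -0.33 on soybean oil, and that of the fibroblast list -0.68 and -0.19.

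**Figure D4:**
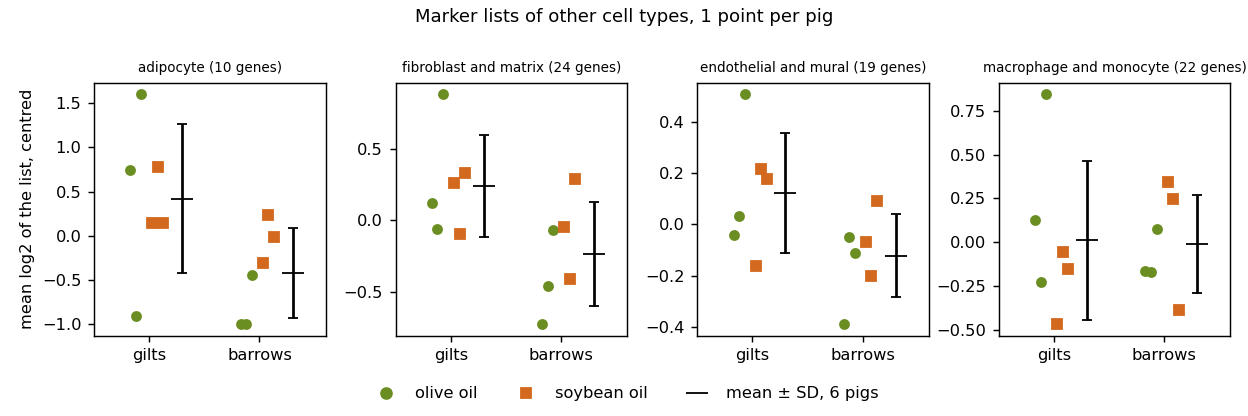
Mean log2(signal + 1) of 4 marker lists, each gene centred on its mean over the 12 pigs, in 6 gilts and 6 barrows, 1 point per pig, green circles for olive oil and orange squares for soybean oil, with the mean and SD of each sex in black. All 4 lists overlap between the sexes, and gilts on olive oil spread most in the adipocyte list.

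Of 19 genes of fatty acid and triglyceride synthesis, 12 were negative, 7 positive and 0 called. At an unadjusted p under 0.05, 5 were lower and 3 higher, where 9.52% and 6.35% of all probe sets were. The median of -0.19 was -0.05 without barrow 14, -0.08 without gilt 4 and -0.32 without gilt 7. ME1, malic enzyme, which supplies NADPH for synthesis, had signals of 1552 to 2605 in barrows (median 2265) and 958.4 to 1917 in gilts (median 1515), a difference of 0.62 with an adjusted p of 0.193, and 0.91 by its other probe set. SCD, the stearoyl-CoA desaturase that makes oleate, had signals of 261.3 to 7435 in barrows (median 2143) and 167.9 to 1036 in gilts (median 680.9), a difference of 1.69 with an adjusted p of 0.280. FASN, fatty acid synthase, was at 1.18 with an adjusted p of 0.327, and at 1.185 and 0.207 by its other probe sets. In both genes the barrows spread far more widely than the gilts. GPAM, which puts the first acyl chain on glycerol phosphate, was at -0.75 and DGAT1, which adds the last, at -0.45.

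Of 36 glycolysis and glycogen genes, 0 passed; 9 were higher and 2 lower at an unadjusted p under 0.05, where 6.35% and 9.52% of all probe sets were, and the median was 0.07 (0.003 to 0.131 without a pig). BPGM, which makes 2,3-bisphosphoglycerate, had signals of 778.2 to 1248 in barrows (median 893.1) and 288.6 to 825 in gilts (median 450.5), with 1 gilt inside the range of the barrows. Its difference was 0.91 ± 0.22 with an adjusted p of 0.117. GPD1, which turns a glycolytic intermediate into glycerol phosphate, had signals of 8270 to 12830 in barrows and 3975 to 7780 in gilts, a difference of 0.68 without overlap and an adjusted p of 0.134. TPI1, PFKM and GPI, enzymes of the main path, were at 0.56, 0.40 and 0.45. SLC16A3, the lactate exporter of fast fibres, was at 0.99 and PHKB, a subunit of phosphorylase kinase, at 0.79.

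Lower values at an unadjusted p under 0.05 were found for PFKL and LDHB. PFKL, the liver form of phosphofructokinase, had signals of 264 to 427.9 in barrows (median 341.2) and 398.6 to 865.8 in gilts (median 691.3), a difference of -0.90 ± 0.17 with an adjusted p of 0.0592. It passed under 5 other settings, with adjusted p of 0.0330 to 0.0454, and without gilt 7 or gilt 9. LDHB, the lactate dehydrogenase of heart and slow muscle, was at -0.64 with an adjusted p of 0.160.

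Energy sensors and regulators had no call. PRKAA2, the catalytic subunit of the kinase AMPK that prevails in muscle, had signals of 2227 to 3458 in barrows (median 2926) and 976.2 to 2196 in gilts (median 1589), a difference of 0.80 ± 0.20 without overlap and an adjusted p of 0.127. PPARGC1A, a coactivator of mitochondrial genes, was at 0.90 with overlapping sexes and an adjusted p of 0.393. NR3C1, the glucocorticoid receptor, was at 0.88 (1.31 on olive oil, 0.44 on soybean oil) with an adjusted p of 0.120, and 0.42 by its other probe set. HSD17B12, which acts in fatty acid elongation and on steroids, was at 0.86. IGF1, the growth factor, was at -0.31 and IGFBP5, which binds it, at -0.46. Of 55 genes of the respiratory chain and ATP synthase, 45 were positive and 0 passed, with a median of 0.12 that became -0.01 without gilt 12. CYCS, cytochrome c, was at 0.66.

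Contractile genes had no call. MYH2, the fast oxidative myosin heavy chain IIa, had signals of 7268 to 15310 in barrows (median 8221) and 4317 to 7225 in gilts (median 5872). The sexes did not overlap, and the difference was 0.63 ± 0.18 with an adjusted p of 0.160. MYH7, the slow myosin heavy chain, was at -0.18 with overlapping sexes. The 13 fast fibre genes had 9 positive values and a median of 0.14 (0.03 to 0.22 without a pig), and the 16 slow fibre genes 13 negative values and a median of -0.09 (-0.20 to -0.02). With centring of each array on its median, the fast fibre median was 0.227 and the slow fibre median -0.001. CASQ2, the calsequestrin of slow and heart muscle, was at -1.04, with 5 of 12 pigs below the signal filter. PPP3CA, the catalytic subunit of calcineurin, was at 0.46.

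Among regulators of muscle mass, MEF2A, a transcription factor of muscle differentiation, had signals of 1868 to 2745 in barrows and 1397 to 1846 in gilts, a difference of 0.39 without overlap and an adjusted p of 0.208. MYF6, a myogenic factor of mature fibres, was at 0.95, TRIM55, a ubiquitin ligase of the sarcomere, at 0.68, and MSTN, the growth inhibitor myostatin, at 0.08. FBXO32, the atrophy ligase atrogin-1, was at 2.92 on olive oil and -0.32 on soybean oil, with an adjusted p of 0.346 over both. CTSH, a lysosomal protease, was at -0.93 and BNIP3L, a receptor for removal of mitochondria, at -0.67. Of 15 immediate early genes, which respond to handling and exercise, 8 were negative and 7 positive, with a median of -0.07 and 0 calls. By oil, a split not tested for the list, 11 were positive on olive oil (median 0.16) and 10 negative on soybean oil (median -0.375). The 2 with the smallest p, NR4A3 and MYC, were at 1.63 and 0.68 with adjusted p of 0.134 and 0.129. Of 23 heat shock and chaperone genes, 17 were positive and 6 negative, with a median of 0.17 and 0 calls by the brightest probe set. At an unadjusted p under 0.05, 3 immediate early genes were higher and 1 lower. In the heat shock list 4 were higher and 0 lower, where 6.35% and 9.52% of all probe sets were.

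MTHFD1L, the mitochondrial folate enzyme that releases formate, fell in barrows. Its signal was 77.68 to 157.1 in barrows (median 85.23) and 169.2 to 233.2 in gilts (median 195.1), with no overlap. It was 2.04-fold lower, a difference of -1.03 ± 0.17 with an adjusted p of 0.0259, although 4 of the 12 pigs lay below the signal filter. It passed without gilt 7 or 9 or barrow 13 or 18 and not without any other pig, with an adjusted p up to 0.0859, and was lost with either of the other normalizations.

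In 2 called genes the probe sets disagreed. A probe set of HSP90B1, a chaperone of the endoplasmic reticulum, had signals of 2136 to 3081 in barrows and 1236 to 1619 in gilts, a difference of 0.88 with an adjusted p of 0.0222. The brighter probe set of the same gene was at -0.23 with an adjusted p of 0.463. A probe set of PDPK1, the kinase that activates AKT below the insulin receptor, had signals of 394.6 to 447.3 in barrows and 220.1 to 334.6 in gilts, a difference of 0.71 with an adjusted p of 0.0486. Its brighter probe set was at -0.28 with an adjusted p of 0.340. No direction can be given for either gene as a whole. The HSP90B1 call held in 5 and the PDPK1 call in 2 of the 12 runs without a pig.

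The other 12 pigs, on beef tallow and coconut oil, gave the barrow minus gilt difference in animals not used above. All p-values for these fats came from a fit of 8 group means to all 24 arrays. Their spread thus also drew on the 12 pigs on olive and soybean oil. That fit gave 120 calls between the sexes on those oils, against 25 from their 12 arrays alone, so counts of calls are not directly comparable. All 11 autosomal calls had the same sign there, 8 at an unadjusted p under 0.05 (12% of all probe sets in either direction) and 1 past the threshold (0.375%, 54 of 14399), the probe set of PDPK1 at 0.65 with an adjusted p of 0.00611. RSAD2 had signals of 166.9 to 1007 in those barrows (median 244.1) and 187.1 to 1812 in those gilts (median 936), a difference of -1.23. EIF2AK2 had signals of 369.2 to 992.6 and 412.7 to 1428, a difference of -0.49, so the sexes overlapped in both genes. ABCA1 was at -0.54 without overlap, GPIHBP1 at -0.67 with overlap, and TRAF6 at 0.37 with overlap. The 11 calls were picked by their p-values on the oils, so smaller differences in the other pigs can follow from that choice. The share of all probe sets with the same sign on both pairs of fats is not given here.

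The interferon list had a median of -0.43 on beef tallow and coconut oil, with 25 of 31 negative and 0 called. Over the 5066 autosomal genes tested the median there was -0.007. All 14 genes lower at an unadjusted p on the oils were negative there, 9 of them at an unadjusted p under 0.05 (5.72% of all probe sets were lower so). Of the fatty acid oxidation genes, 25 of 28 were negative there, with a median of -0.39, and HADHA passed at -0.96 (adjusted p 0.0477). BPGM passed at 1.50 (adjusted p 0.0152). The adipocyte and fibroblast lists had medians of -0.13 and 0.10 there, and oxidative phosphorylation one of -0.15.

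**Figure D5:**
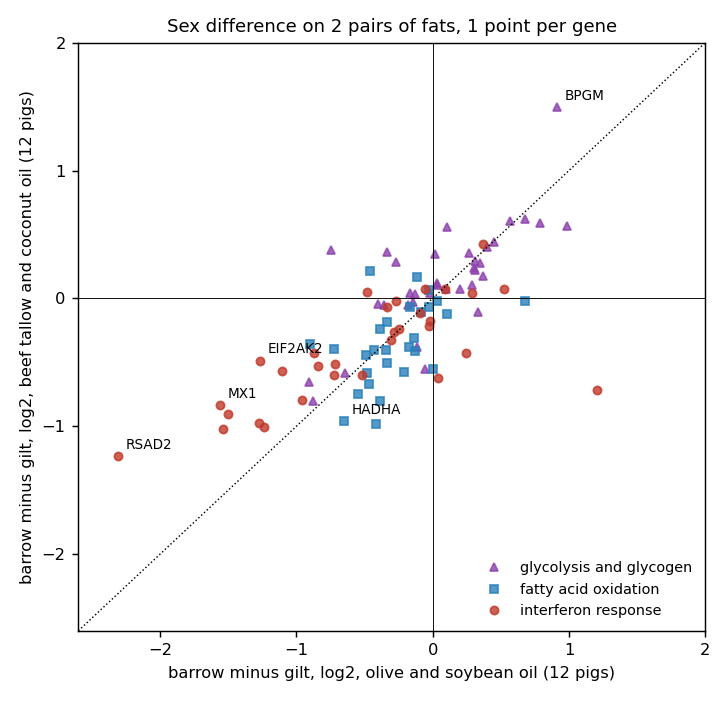
Barrow minus gilt difference in log2(signal + 1) on olive and soybean oil (x axis, 12 pigs) and on beef tallow and coconut oil (y axis, the other 12 pigs), 1 point per gene of 3 lists; the dotted line marks equal values. RSAD2, EIF2AK2 and MX1 lie above the line, at -1.23, -0.49 and -0.84 on the y axis, and BPGM lies above it at 1.50. RSAD2, EIF2AK2 and MX1 were called in the x axis pigs, so larger sizes there can follow from that choice.

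The difference between the sexes was not shown to depend on the fat. The interaction of sex with the oil (olive against soybean) passed for 0 of 14399 probe sets in limma (585 or 4.06% at an unadjusted p under 0.05, lowest adjusted p 0.961). The interaction of sex with the class of fat (oils against beef tallow and coconut oil) also passed for 0 (1065 or 7.4%, lowest adjusted p 0.629). No interferon gene had an unadjusted p under 0.05 in either. For NR3C1 the interaction with the class of fat was 0.77 ± 0.26, with an adjusted p of 0.629.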

How the data were processed

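Microarray signals were measured in 24 longissimus dorsi samples, of which 12 were compared. The authors deposited probe set signals as linear intensity values; no summarisation method is named in the labels. The deposited intensity values were turned into log2(signal + 1), and 14399 of 23999 probe sets entered the test; their mean signal over the 24 arrays was at or above the 40th percentile (94.11). Limma 3.58.1 in R 4.3.3 (lmFit, eBayes) fitted sex and oil on 12 arrays, with Benjamini-Hochberg adjustment over all tested probe sets and a threshold of 0.05. The interaction with the oil came from 4 group means on the 12 arrays. The interaction with the class of fat and the difference in the other 12 pigs came from 8 group means on all 24 arrays. The fit was also run on simulated data with known changes. Those values were drawn independently for each probe set, so genes that vary together and differences between arrays were not covered. Single values were also compared by exact permutation of sexes within oils (400 relabelings, smallest p 0.005).

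Leaving out controls, 10069 probe sets had 1 gene symbol, 198 several and 13732 none. RefSeq of assembly Sscrofa11.1 gave chromosomes; 9509 of the former were autosomal. A gene is described by its probe set with the highest mean.

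Named genes were list members past the threshold, the list members with the smallest p up to 12 in each direction, called autosomal genes of fitting function, a fixed set of metabolic and muscle genes, and the 2 smallest p of each list; others named were chosen after their values were seen. The comparison and the 31 lists were chosen with earlier results of these data known. Alternatives were the filter, normalization, pseudocount, model, samples, weights and single pigs. Nothing in the labels says which pigs shared a pen. The p-values set each difference against the spread between pigs that the fit leaves. They treat each pig as independent, which could not be checked. Whether pen and sex coincided is not known.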

Additional observations from a re-analysis of the deposited data

Results flagged for a closer look

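In 9 of 184 sets of 6 pigs of 1 sex, the highest or lowest pig stood apart from the others by Dixon's criterion; chance gives about 1 in 20. Gilt 12 was the lowest gilt for GPD1 (signal 3975) and SUCLA2 (4062) and the highest for CTSH (3214) and MCAM (985.8). Gilt 11 was the highest gilt for SLC16A3 (409) and gilt 7 the lowest for SPP1 (112.8). Among barrows, number 14 was highest for MYH2 (15310), number 13 highest for MBP (648.5) and number 18 lowest for ME1 (1552).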

How the results depend on the processing

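No paired analysis was possible because the title numbers run from 1 to 24 and no number is shared between groups. The 25 probe sets called became 40 with a filter at the 60th percentile, 120 with all 24 arrays in the fit, 45 with a trended and robust spread, 39 with array weights and 14 without the 2 least correlated arrays. The count of 11 autosomal calls became 3 with no signal filter, 20 with the 60th percentile filter, 7 with quantile normalization, 6 with 4 group means, 49 with all 24 arrays, 23 with a trended and robust spread, 19 with 1 probe set per gene and 1 without the 2 least correlated arrays. Of the original 11, 1 remained with no signal filter and 9 with the 60th percentile filter. With all 24 arrays 9 remained, and 9 with 1 probe set per gene. All 11 remained with a trended and robust spread. The 4 interferon calls became 1 with no signal filter and 1 without the 2 least correlated arrays. Without a single pig the counts were 14 to 103, 1 to 55 and 1 to 5. Centring on the median gave 26 calls, 57.69% of them higher in barrows against 44% of 25. EIF2AK2 passed under every setting run. Each of the other 9 calls named was lost with no signal filter and without the 2 least correlated arrays. HBM and MSTN lay near 0 and changed sign: HBM was 0.067 with quantile normalization, 0.088 with median centring, 0.006 with a pseudocount of 16 and -0.169 to 0.272 without a pig, and MSTN -0.077 to 0.274 without a pig. A filter on the mean log2 signal, added after seeing the data, gave 21 calls, 10 of them autosomal.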
